A study of Homo sapiens with 4 samples.

Results

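The human genome encodes a large family of RAB small GTPases, and their genes were followed here in the SH-SY5Y neuroblastoma line with and without shock wave treatment (SWT). Members were the gene symbols made of RAB, a number and at most 1 letter from A to F, which gave 63 of the 28058 genes in the count table. SH-SY5Y is an established human cell line used as a model of neurons, and the labels give its tissue as nerve tissue. The 2 control samples received no treatment. The 2 SWT samples received 300 impulses of 0.08 mJ/mm2 at 3 Hz from an applicator 7 cm away, in medium-filled flasks lowered into water kept at 37 °C. RNA was taken 6 h after SWT, and poly(A) RNA was sequenced. The series' design text names exosomes in place of direct treatment, and which was done is not settled by the sources used here. All samples come from 1 line, and the labels do not say whether replicates were grown separately. The p-values therefore rest on the spread of these libraries, which may be technical.

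A RAB protein switches between a GDP-bound form, found in the cytosol, and a GTP-bound form that sits on a membrane through prenyl groups and recruits effectors such as tethers and motors. Exchange factors load GTP, and GTPase-activating proteins speed its hydrolysis. Each RAB marks its own membranes: RAB1 and RAB2 the early secretory pathway, RAB5 the early endosome, RAB11 the recycling endosome, RAB7 the late endosome. RAB3 proteins act in calcium-triggered release of synaptic vesicles and secretory granules, and RAB27 proteins dock granules and lysosome-related organelles and act in the release of exosomes from multivesicular endosomes.

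The RAB3 family has 4 genes, which stood at very different levels in these libraries, so the sequence before a RefSeq start of each is shown beside that difference. Each run covers bases 250 to 71 before the RefSeq start on GRCh38.p14, 180 bases on the strand of the gene, and none of them lies in a GENCODE exon. The runs of RAB3C and RAB3D lie in introns of the gene as GENCODE spans it, since GENCODE also gives them an exon further upstream. Capitals mark CG dinucleotides. The runs lie at chr19:18204113-18204292 on the minus strand for RAB3A, chr1:51990771-51990950 on the minus strand for RAB3B, chr5:58582825-58583004 on the plus strand for RAB3C and chr19:11339728-11339907 on the minus strand for RAB3D.
RAB3A: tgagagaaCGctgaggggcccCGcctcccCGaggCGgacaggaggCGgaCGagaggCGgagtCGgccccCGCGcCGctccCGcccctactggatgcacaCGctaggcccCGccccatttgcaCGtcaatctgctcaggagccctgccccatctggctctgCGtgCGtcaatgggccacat
RAB3B: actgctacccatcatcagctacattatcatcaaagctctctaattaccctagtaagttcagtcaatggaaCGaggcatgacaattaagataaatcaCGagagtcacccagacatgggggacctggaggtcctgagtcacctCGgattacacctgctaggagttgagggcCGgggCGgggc
RAB3C: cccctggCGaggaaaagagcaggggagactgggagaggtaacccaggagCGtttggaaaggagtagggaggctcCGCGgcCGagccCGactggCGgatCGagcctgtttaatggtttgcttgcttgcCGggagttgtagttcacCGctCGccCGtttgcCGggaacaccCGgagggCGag
RAB3D: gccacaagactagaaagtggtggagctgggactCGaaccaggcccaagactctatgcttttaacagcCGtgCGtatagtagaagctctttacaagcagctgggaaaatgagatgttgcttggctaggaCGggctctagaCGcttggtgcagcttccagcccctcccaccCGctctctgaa

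The RAB3A run held 17 CG dinucleotides, that of RAB3C 15, that of RAB3D 6 and that of RAB3B 5, against a median of 7 over 35116 RefSeq starts and of 11 over the 71 starts matched to 50 RAB genes. By RNA level, given below, RAB3B led and RAB3C had no count. A link between CG count and RNA level was not tested, and the files do not show whether these RAB3 starts were used. The GC box GGGCGG, searched on both strands, was found 2 times before RAB3A, 1 time before RAB3B and 0 times before RAB3C and RAB3D. It occurs in the same window of 31.3% of all starts and 53.5% of RAB starts. CCAAT (23.9% of all starts), CACGTG (3.80%) and TATAAA (7.16%), also searched on both strands, were not found in the 4 runs. The runs end 71 bases before the start, so bases nearer to it were not searched, and these motifs could lie there. A GC box contains a CG, so these counts overlap. RefSeq gives 5 starts for RAB27A and 2 for RAB27B, and the files do not show which of them was used.

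The libraries held 9888263 to 11686808 counts. Values are given as CPM, counts scaled to the size of the library. Where a gene had 0 counts, its level could still be 0.258 CPM in the deepest library and 0.303 CPM in the shallowest, by counting error only. The cells were checked against markers of their line. Of 15 noradrenergic neuroblastoma markers, 8 were under 1 CPM in every library, and 6 had no count in any library, among them PHOX2A, TH, DBH, DDC and CHGA, so several defining markers of the labelled line were not detected. Others on that list were present in every library, among them HAND2 at 48.9 to 54.2 CPM, GATA2 at 13.2 to 19.1 CPM, ISL1 and GATA3. All 12 mesenchymal markers reached 1 CPM in every library and 10 reached 10 CPM, against 2 of the 15 noradrenergic markers at 10 CPM. The mesenchymal markers summed to 13800 and 12597 CPM in control and to 12263 and 13176 CPM in SWT. The noradrenergic markers summed to 80.2 and 80.7 CPM in control and to 84.8 and 76.5 CPM in SWT. By these lists the mesenchymal markers were far higher than those of the labelled line. Under 1 CPM in every library were 4 of 6 glial, 3 of 6 endothelial and 5 of 6 leukocyte markers. The 25 heart muscle markers summed to 12.8 and 423 CPM in control replicates 1 and 2 and to 50.0 and 15.0 CPM in SWT replicates 1 and 2. Control replicate 2 thus stands apart in these markers. The fold changes of RAB3A and RAB20, both highest in that library, are given with and without it. In bulk RNA, fewer cells of a type and less RNA per cell cannot be told apart.

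RAB transcripts made up a similar share of the RNA in every library, at 3135 and 3209 CPM summed over the 63 genes in control and 3177 and 3179 CPM in SWT. There were 45 genes at 1 CPM or more in every library, 37 at 10 CPM or more and 11 at 100 CPM or more. Another 4 reached 1 CPM in some libraries only, and 14 stayed under 1 CPM in every library, of which 6 had no count at all. To compare genes with each other, CPM was divided by the length of all exons of a gene in kilobases. The 10 highest genes held 61.8% to 63.0% of the summed level per kb, so a few genes made up most of the family.

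**Figure D1:**
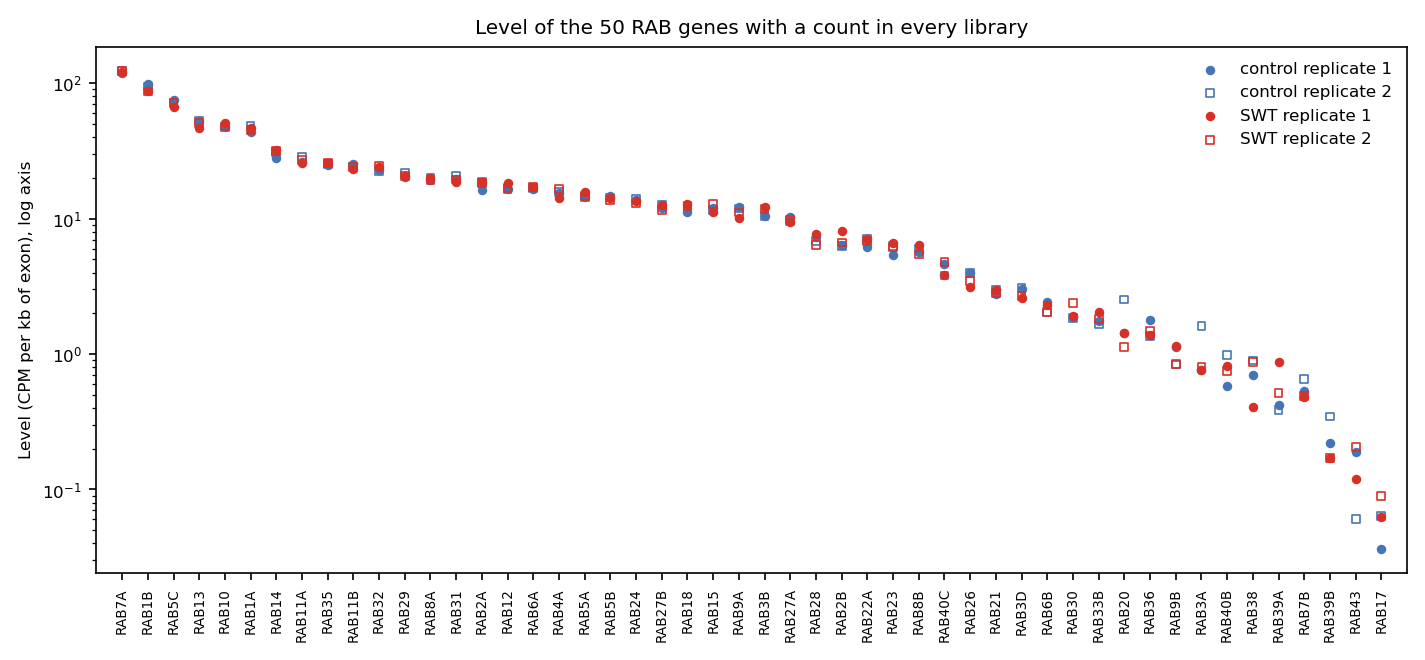
Level per kb of exon (log axis) of the 50 RAB genes with a count in every library, in order of their mean, with 1 point per library (blue control, red SWT, filled replicate 1, open replicate 2). RAB7A leads at 121 CPM per kb, and the points of a gene lie close together except among the lowest genes.

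The late endosome gene RAB7A, whose product drives fusion of late endosomes with lysosomes (chromosome 3, 128726122 to 128814796), led at 121 ± 2.14 CPM per kb (SD, n = 4), above 97.8% of the 12061 tested genes with a known exon length. The ER-to-Golgi gene RAB1B followed at 91.9 ± 5.86 and the early endosome gene RAB5C at 71.5 ± 3.30 CPM per kb (SD, n = 4). The ranges of these 3 genes over the libraries did not overlap. With the longest transcript as length RAB7A still led, and RAB5C at 103 CPM per kb came before RAB1B at 91.9, so their order depends on the length used. Next came RAB13, which carries cargo to tight junctions, at 50.7 ± 2.95, RAB10, which carries vesicles from the Golgi to the cell surface, at 48.5 ± 1.78, and RAB1A at 46.0 ± 1.83 CPM per kb (SD, n = 4). Neighbours among RAB13, RAB10 and RAB1A overlapped, and their order is not set by these data. RAB14 and RAB11A, both of the recycling route, stood at 28.2 to 32.4 and at 25.9 to 28.6 CPM per kb, also with overlapping ranges. The first 8 places were thus held by genes of the ER-to-Golgi step, surface delivery, and the early, recycling and late endosome, and by none of RAB3 or RAB27. With the longest transcript 6 of the 8 stayed, RAB8A and RAB35 took the places of RAB14 and RAB11A, and again no RAB3 or RAB27 gene was among them. RAB27B stood in place 22, RAB3B in 26 and RAB27A in 27. RAB3B overlapped RAB9A just above it and not RAB27A just below it, though with the longest transcript RAB27A lay above RAB3B, at 15.8 against 11.3 CPM per kb. RAB3D stood in place 36 and RAB3A in 43, near RAB9B and RAB40B, both with overlapping ranges.

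The comparison of SWT with control asks which genes differ 6 h after treatment. No RAB gene passed the test in either direction. Of the 63 genes, 48 had enough counts to be tested, and the other 15 had at most 12 counts in any library. In edgeR's quasi-likelihood test 0 of the 48 were higher (0% of all 12399 genes tested) and 0 were lower (0% of all), with edgeR adjusted p-values from 0.838 to 0.998. At an unadjusted p under 0.05 there were 2 of 48, against 5.77% of all genes tested: RAB3B on the higher side, where 2.81% of all genes lay, and RAB1B on the lower, where 2.96% lay. That is no more than the background. DESeq2 gave 0 calls among the RAB genes and 1 at an unadjusted p under 0.05 (RAB3B), while limma-voom and limma on the deposited log2 values each gave 0 and 2 (RAB1B and RAB3B). The log2 fold changes (SWT over control) lay above 0 for 24 and below 0 for 24 (above 0 for 49.7% of all genes tested), with a median of 0.00091 against -0.00078 over all genes tested. Their median size was 0.073, against 0.074 over all genes, 0.078 for RAB genes between the 2 control libraries and 0.097 between the 2 SWT libraries. Differences between single libraries spread more than those between means of 2, so the last pair of values is an upper guide to the noise. Both SWT libraries lay above both controls for 13 of the 48 genes, a larger share than the 17.3% of all genes tested. They lay below both for 10 of the 48, against 18% of all genes. In either direction the groups did not overlap for 35.3% of all genes. The genes share the same 4 libraries, and the difference from these shares was not tested.

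**Figure D2:**
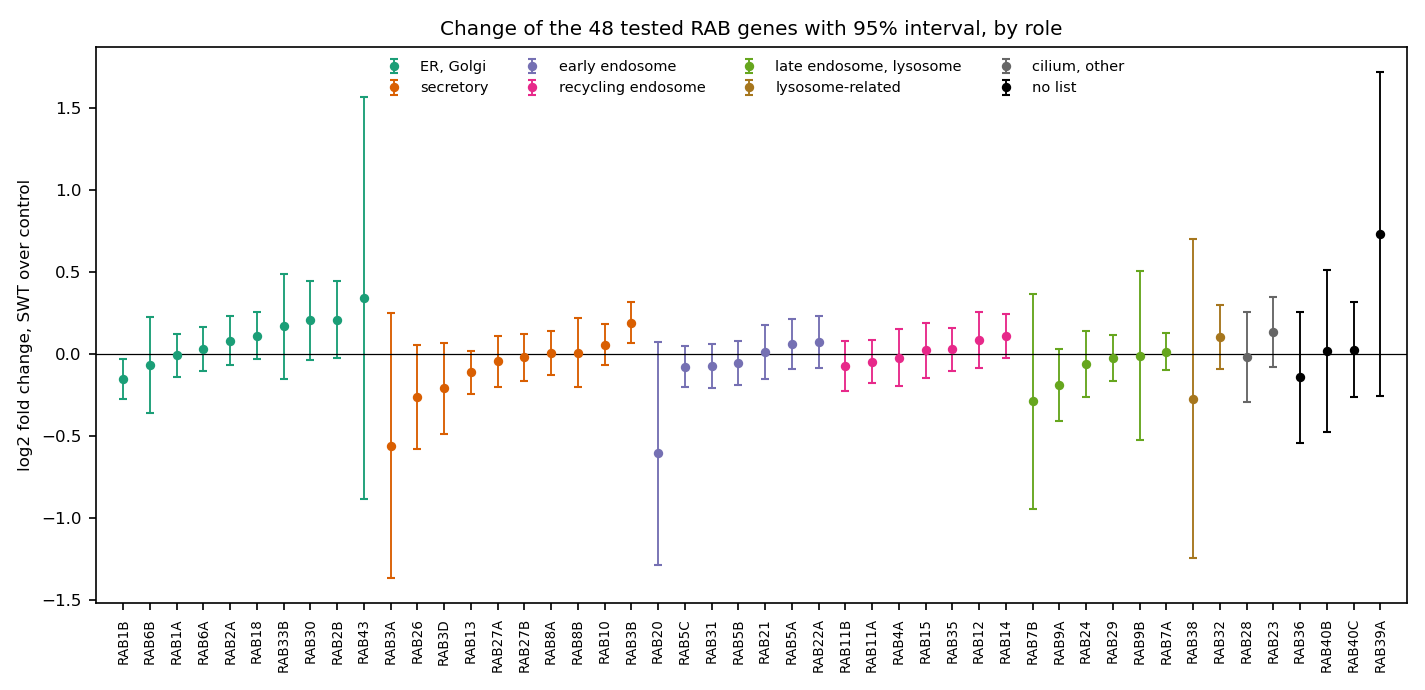
Log2 fold change (SWT over control) of the 48 tested RAB genes with the approximate 95% interval from edgeR, 2 libraries per group, coloured by role. Only the intervals of RAB3B (0.07 to 0.32) and RAB1B (-0.27 to -0.03) leave out 0, and wide intervals belong to genes with few counts such as RAB43, RAB39A and RAB3A.

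For most of the family the interval around the change was narrow, at a share near that of all genes tested. These intervals rest on 2 libraries per group, whose spread may be technical. The 95% interval of the log2 fold change lay within 0.5 of 0 for 38 of the 48 genes (79.2%, against 77.6% of all genes tested), and within 0.25 for 23 of them. The ends of the range were genes of few reads, RAB20 at -0.60 and RAB39A at 0.73. RAB39A, which acts on autophagosome and lysosome traffic, had 9 and 7 counts in control, 16 and 11 counts in SWT, and a 95% interval from -0.25 to 1.72. Across the 48 genes, the log2 fold change went with GC content at a Spearman rho of -0.38, the difference of the control replicates (2 minus 1) at -0.23 and that of the SWT replicates (2 minus 1) at 0.32. These describe genes that share the same 4 libraries. After removal of each library's trend with GC content and length, limma still gave 0 calls among the RAB genes, with RAB3B at 0.16 and RAB1B at -0.087.

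RAB3B was the main RAB3 gene of these cells and the RAB gene with the smallest p. Known from pituitary and other endocrine cells and from inhibitory synapses, it lies on chromosome 1, 51907956 to 51990764, minus strand. It stood at 136 and 134 CPM in control and at 158 and 151 CPM in SWT, so both SWT libraries lay above both controls. Means were 135 ± 0.997 CPM and 154 ± 4.82 CPM (SD, n = 2 each). The log2 fold change was 0.19 (standard error 0.06, edgeR adjusted p = 0.838), and it ranged from 0.16 to 0.23 when each library was left out in turn. The difference did not pass the test. It passed in 1 alternative added after seeing the data, a block with the replicate numbers crossed between the groups (edgeR adjusted p = 0.0305).

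The other RAB3 genes were low or had no count. RAB3D, the RAB of granules in exocrine cells (chromosome 19, 11322046 to 11346270, minus strand), stood at 13.4 and 13.6 CPM in control and at 11.4 and 11.9 CPM in SWT. Its values lay the other way from those of RAB3B, with both SWT libraries below both controls, at a log2 fold change of -0.21 (standard error 0.13, edgeR adjusted p = 0.886). RAB3A, the main RAB of synaptic vesicles in brain (chromosome 19, 18196784 to 18204074, minus strand), had 16 and 29 counts in control and 14 and 17 in SWT, or 1.38, 2.93, 1.39 and 1.46 CPM. Its groups overlapped, and 3 of the 4 libraries were nearly level. The high one was control replicate 2, the library with most heart muscle marker RNA. SWT replicate 1, with the next highest sum of these markers (50.0 against 423 CPM), had 14 counts of RAB3A. The part of heart muscle RNA in the RAB3A values was not tested. The log2 fold change of RAB3A was -0.56 (standard error 0.38, edgeR adjusted p = 0.900) with all libraries and 0.05 without control replicate 2. RAB3C, another neuronal member (chromosome 5, 58582221 to 58859394, plus strand), had 0 counts in all 4 libraries.

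Both RAB27 genes were present at over 50 CPM in every library, and their groups overlapped. RAB27A, which links melanosomes and lytic granules to the cell cortex (chromosome 15, 55202966 to 55319113, minus strand), stood at 57.3 and 53.9 CPM in control and at 52.7 and 55.3 CPM in SWT. RAB27B, its close paralog in platelets and secretory cells (chromosome 18, 54717860 to 54895516, plus strand), stood at 88.8 and 93.6 CPM in control and at 93.7 and 86.4 CPM in SWT. Neither gene passed the test. Log2 fold changes were -0.04 for RAB27A (95% interval -0.20 to 0.11, edgeR adjusted p = 0.964) and -0.02 for RAB27B (-0.16 to 0.12, edgeR adjusted p = 0.991). The sign of both turned when single libraries were left out, with ranges of -0.083 to 0.0051 and -0.076 to 0.042.

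Set side by side per kb, the RAB27 pair outweighed the RAB3 family. The summed RAB27 level was 1.54 and 1.47 times the summed RAB3 level in control and 1.41 and 1.41 times in SWT, a mean of 1.46 ± 0.0639 (SD, n = 4). With the longest transcript of each gene as its length the mean was 1.84 ± 0.0877 (SD, n = 4), so the size depended on the length used. That alternative leaves RAB3B at 12844 bases and shortens RAB27A from 5605 to 3459, so it is no check of the direction. In CPM, not divided by length, the RAB3 sum was the higher one in every library. It was 150 and 151 CPM in control and 170 and 164 in SWT. The RAB27 sum was 146 and 147 CPM in control and 146 and 142 in SWT. The lead of RAB27 thus rests on the division by length. Gene by gene the gap per kb was small, since RAB27B over RAB3B was 1.09 ± 0.0982 (SD, n = 4) and ranged from 0.991 to 1.21. The order within the RAB27 pair was not settled: RAB27B over RAB27A was 1.25 ± 0.0883 with all exons and 0.787 ± 0.0556 with the longest transcript (SD, n = 4). Per kb, RAB3B stood at 3.40 to 4.75 times the level of RAB3D and at 6.47 to 16.1 times that of RAB3A.

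Summed per kb, the 12 secretory genes stood at 164 to 168, the 17 endocytic genes of the early and recycling endosome at 278 to 286 and the 7 neuron-enriched genes at 26.1 to 27.7 CPM per kb over the 4 libraries. The ranges of these lists did not overlap, and within each list the 4 libraries lay close together. The lists differ in their number of genes, and RAB3A, RAB3B and RAB3C count in the secretory and the neuron-enriched list.

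**Figure D3:**
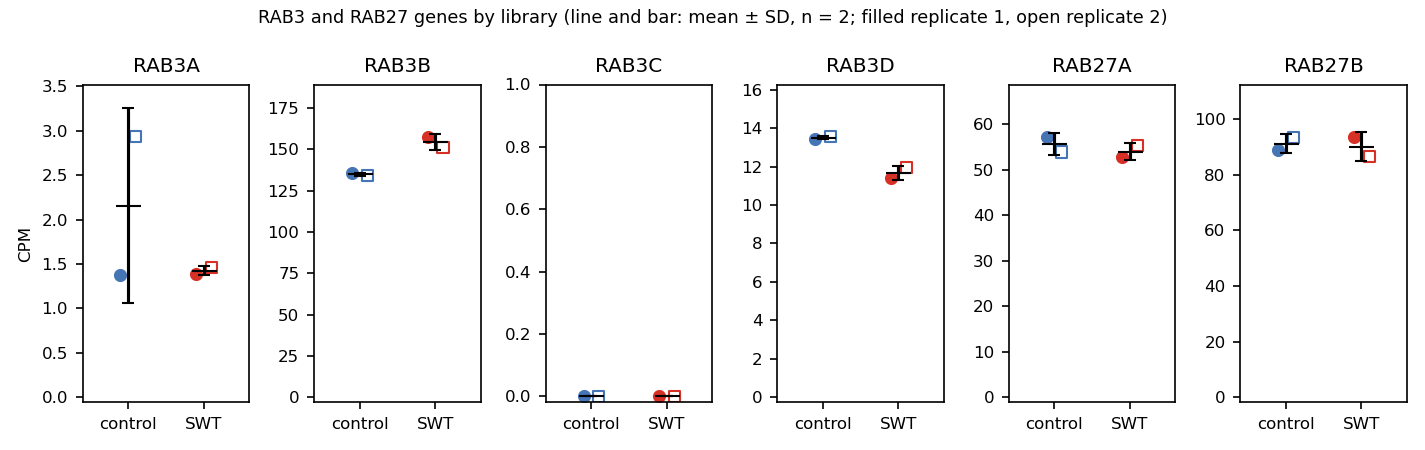
CPM of the RAB3 and RAB27 genes in each library, with the mean and SD of each group (n = 2) and a separate vertical axis per gene. RAB3B is higher and RAB3D lower in both SWT libraries, RAB3A is high in control replicate 2 alone, RAB3C has no count, and the groups overlap for RAB27A and RAB27B.

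The secretory list held 12 genes, RAB3 and RAB27 included, and 10 of them were tested. By value 4 lay above 0 and 6 below, and groups did not overlap for 2 on the higher side (17.3% of all genes tested) and 3 on the lower (18% of all). The median log2 fold change was -0.030, and it turned to 0.032 without control replicate 2. The list summed to 752 and 762 CPM in control and 776 and 758 CPM in SWT. RAB10 stood at 173 and 172 CPM in control and at 186 and 174 CPM in SWT, a log2 fold change of 0.06. RAB13 stood at 144 and 146 CPM in control and at 128 and 140 CPM in SWT, a log2 fold change of -0.11 (standard error 0.06, edgeR adjusted p = 0.870). RAB26, which acts on secretory granules and synaptic vesicles, stood at 9.91 CPM in both controls and at 7.84 and 8.67 CPM in SWT (log2 fold change -0.26, standard error 0.15, edgeR adjusted p = 0.870). RAB10, RAB13 and RAB26 each had groups that did not overlap, and none passed the test. RAB8A and RAB8B, which deliver vesicles to the plasma membrane and the cilium, both had a log2 fold change of 0.01. RAB37, a granule RAB of mast cells, had 0 to 3 counts per library.

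Of the 12 ER and Golgi genes, 10 were tested, 7 lay above 0 and 3 below, and the median log2 fold change was 0.099 (0.036 without SWT replicate 2, 0.065 without control replicate 1). Groups did not overlap for 5 genes on the higher side (17.3% of all genes tested) and 1 on the lower (18% of all). That 1 was RAB1B (chromosome 11, 66268533 to 66277492, plus strand), which acts at the ER-to-Golgi step and in Golgi maintenance. RAB1B stood at 198 and 190 CPM in control and at 175 and 174 CPM in SWT, means of 194 ± 6.13 and 175 ± 0.345 CPM (SD, n = 2 each). Its log2 fold change was -0.15 (standard error 0.06, edgeR adjusted p = 0.838) and ranged from -0.18 to -0.12 with each library left out. Its paralog RAB1A stood at 146 and 160 CPM in control and at 154 and 149 CPM in SWT, with overlapping groups and a log2 fold change of -0.0051. RAB1B and RAB1A thus differed by value, but the difference between them was not tested.

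Of the genes on the higher side by value, RAB2B, a Golgi RAB, stood at 23.3 and 22.6 CPM in control and at 29.3 and 24.0 CPM in SWT (log2 fold change 0.21, standard error 0.11, edgeR adjusted p = 0.846). RAB30, a resident of the Golgi, stood at 22.3 and 21.8 CPM in control and at 22.6 and 28.2 CPM in SWT (0.21, standard error 0.12, edgeR adjusted p = 0.861). In each of them 1 SWT library carried most of the difference: RAB2B gave 0.068 without SWT replicate 1, and RAB30 gave 0.036 without SWT replicate 2. RAB18, found on the ER and lipid droplets, stood at 70.0 and 75.4 CPM in control and at 80.1 and 77.1 CPM in SWT (0.11, standard error 0.07, edgeR adjusted p = 0.875). Summed over the list, CPM was 657 and 679 in control and 675 and 663 in SWT, so the list as a whole overlapped between the groups.

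The endocytic genes, 8 of the early and 9 of the recycling endosome, were split evenly. Of 14 tested genes 7 lay above 0 and 7 below (median log2 fold change -0.0031), and groups did not overlap for 4 on the higher side (17.3% of all genes tested) and 3 on the lower (18% of all). Their summed CPM was 1160 and 1187 in control and 1155 and 1178 in SWT. RAB5C, an isoform of the early endosome fusion factor RAB5 (chromosome 17, 42124976 to 42155044, minus strand), stood at 208 and 197 CPM in control and at 186 and 199 CPM in SWT. Its groups overlapped, at a log2 fold change of -0.075 (95% interval -0.20 to 0.05). RAB5A and RAB5B stood at 0.062 and -0.054, RAB31 at -0.069, RAB22A at 0.075 and RAB21 at 0.015 on the log2 scale of the difference. RAB20, which acts on early endosomes and phagosomes, had 25 and 38 counts in control and 22 and 20 in SWT, or 2.15, 3.84, 2.18 and 1.72 CPM. As with RAB3A, the high library was control replicate 2. The log2 fold change of RAB20 was -0.60 (standard error 0.32, edgeR adjusted p = 0.851), and it was -0.15 without that library and -0.98 without control replicate 1.

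On the recycling route RAB14, which moves cargo between the Golgi and endosomes, stood at 121 and 133 CPM in control and at 139 and 136 CPM in SWT. Both SWT values were above both controls, at a log2 fold change of 0.11 (standard error 0.06, edgeR adjusted p = 0.868). RAB11A, the RAB of the slow recycling route, stood at 150 and 162 CPM in control and at 147 and 155 CPM in SWT, and its log2 fold change was -0.045. RAB11B stood at -0.072, RAB35 at 0.030, RAB12 at 0.088 and RAB4A, of the fast route, at -0.021 on the log2 scale of the difference. RAB25, an epithelial relative of RAB11, and RAB4B had no count.

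All 6 genes of the late endosome, lysosome and autophagy list were tested, with 1 above 0, 5 below and a median of -0.040 for the log2 fold change. That median lay between -0.11 and -0.024 with 1 library left out, and at -0.093 without control replicate 2 and -0.11 without SWT replicate 1. The summed level was 462 and 477 CPM in control and 463 and 471 CPM in SWT. RAB7A stood at 322 and 333 CPM in control and 327 and 335 CPM in SWT. Its log2 fold change of 0.015 had a 95% interval from -0.10 to 0.13, among the narrowest of the family. RAB9A, which acts in return from late endosomes to the Golgi (chromosome X, 13689125 to 13710506, plus strand), stood at 25.9 and 25.2 CPM in control and at 21.2 and 23.5 CPM in SWT. Both SWT libraries of RAB9A lay below both controls, at a log2 fold change of -0.19 (standard error 0.10, edgeR adjusted p = 0.857). RAB29, known for its link to the kinase LRRK2, stood at -0.022, and RAB24, of autophagy, at -0.058 on the same scale.

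RAB32, which serves melanosomes and other lysosome-related organelles, was present at 27.7 and 27.2 CPM in control and at 29.1 and 30.0 CPM in SWT. Its partner in melanocytes, RAB38, had 12 and 13 counts in control and 6 and 15 in SWT. Of the cilium list, RAB23, an inhibitor of hedgehog signalling, stood at a log2 fold change of 0.13 and RAB28, of photoreceptor cilia, at -0.014. RAB34, which acts in the formation of cilia, had 0 to 4 counts per library.

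Neuron-enriched RABs were mostly low in these cells. Of the 7 genes on that list, which overlaps the role lists, 3 reached 10 CPM in every library (RAB3B, RAB15 and RAB6B), and 4 reached 1 CPM. RAB15, which slows endocytic recycling in neural cells (chromosome 14, 64945814 to 64973226, minus strand), stood at 60.1 and 58.0 CPM in control and at 55.7 and 64.0 CPM in SWT. RAB6B, the neuronal form of the Golgi RAB6 (chromosome 3, 133824239 to 133895836, minus strand), stood at 14.6 and 12.3 CPM in control and at 13.8 and 12.2 CPM in SWT. Groups overlapped for both, at log2 fold changes of 0.024 and -0.064. RAB39B, a neuronal gene on chromosome X (155258241 to 155264589, minus strand), had 9 and 12 counts in control and 6 and 7 in SWT. RAB33A, on chromosome X at 130171649 to 130184870, plus strand, had 2 and 2 counts in control and 0 and 2 in SWT. RAB39B and RAB33A were too low to test, and with RAB3C they made up the neuron-enriched genes outside the test. The neuron-enriched list summed to 213 and 209 CPM in control and 229 and 229 CPM in SWT. The RAB3 genes alone summed to 150 and 151 CPM in control and 170 and 164 CPM in SWT, and the RAB27 genes to 146 and 147 CPM in control and 146 and 142 CPM in SWT.

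Most of the families compared had 1 leading gene. RAB3B held 69.0% to 78.6% of the RAB3 level per kb, RAB3D 16.5% to 21.2% and RAB3A 4.89% to 10.7%. RAB5C held 69.1% to 72.0% of RAB5, RAB1B 65.2% to 69.2% of RAB1, RAB2A 69.6% to 75.0% of RAB2 and RAB8A 75.8% to 78.1% of RAB8. The more one-sided families were RAB6, with RAB6A at 87.0% to 89.2%, RAB9, with RAB9A at 89.8% to 93.4%, and RAB7, with RAB7A at 99.5% to 99.6%. In RAB4 all counts were of RAB4A, and whether the zeros of RAB4B come from the counting was not tested. Shares of low genes varied between libraries, as with RAB3A and with RAB39A, which held 52.8% to 83.6% of the RAB39 level. The RAB40 family, whose members carry a SOCS box of ubiquitin ligases, was led by RAB40C at 79.5% to 87.8%. RAB40B held 11.0% to 20.5%, and was highest in control replicate 2, the library with most heart muscle marker RNA, whose part in this value was not tested. RAB11A at 50.9% to 54.1% and RAB27B at 53.9% to 57.3% led by little, and with the longest transcript as length they held 47.7% and 44.0%, so their order turned.

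**Figure D4:**
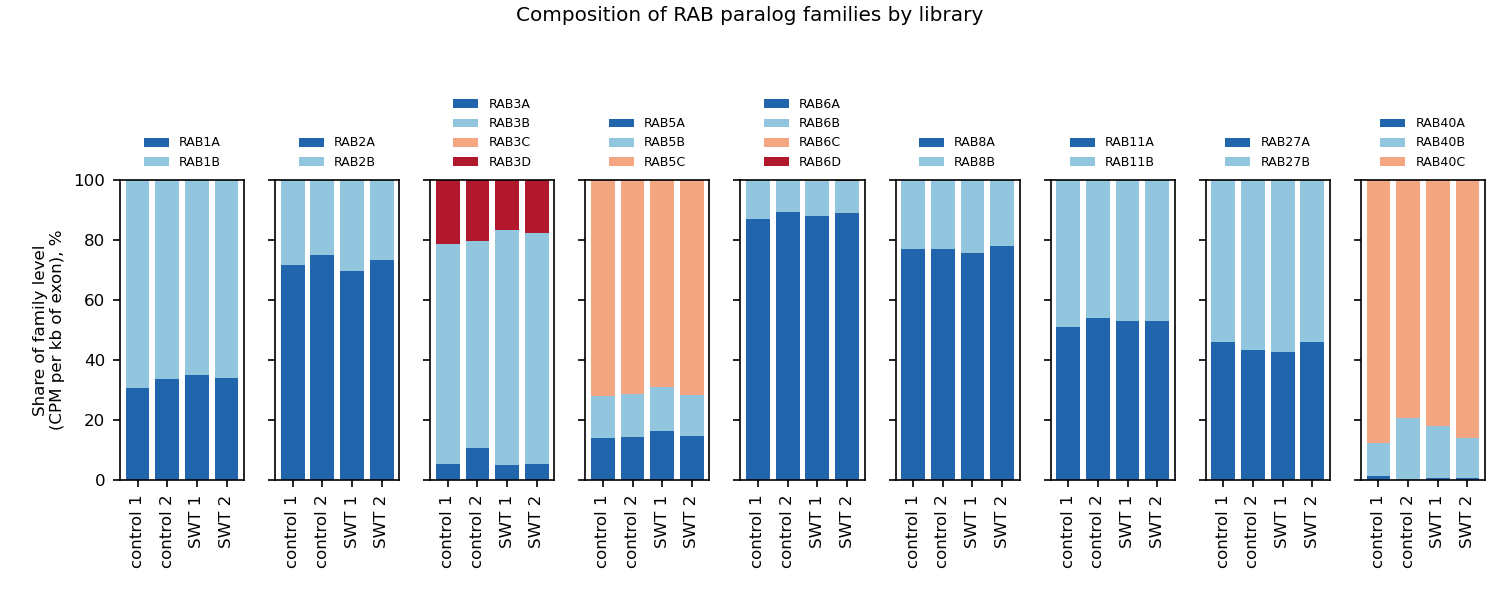
Share of each gene in the summed level per kb of its family, with 1 bar per library. RAB3B, RAB5C, RAB6A and RAB40C lead their families in every library, while RAB11 and RAB27 are near equal parts.

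The genes with no count in any library were RAB3C, RAB4B, RAB19, RAB25, RAB41 and RAB42. RAB6C, RAB6D and RAB44 had 1 to 3 counts over all 4 libraries together. RAB6C and RAB6D are near-identical copies of RAB6A, and RAB40A is a close copy among the RAB40 genes, so counts of these could be split or lost in counting and are uncertain. Exons of 10 members share bases with another gene on the same strand in GENCODE 29. RAB43 shares 79.3% of its exon bases, mainly with the readthrough gene ISY1-RAB43, and had 11 and 3 counts in control and 6 and 12 in SWT, with 0 for the readthrough gene. It was the only member with over 50% shared, against 2.21% of counted protein-coding genes. Shares were 44.8% for RAB24, 36.8% for RAB4B, 28.8% for RAB5C, 24.8% for RAB13 and 19.6% for RAB4A, and the sources used here do not say how shared bases were counted.

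The genes that act on RABs did not pass the test either. Over lists of prenylation and recycling factors, exchange factors, GTPase-activating proteins, effectors and secretion partners, 0 genes were higher and 0 lower in edgeR, DESeq2 and limma-voom. At an unadjusted p under 0.05, where 5.77% of all genes tested lay, edgeR gave 1 gene in each of the first 4 lists and 2 among the secretion partners, lists too short to be read against that share. Of 7 prenylation and recycling factors 4 lay above 0 (median log2 fold change 0.050), of 28 tested exchange factors 16 (0.011), of 29 GTPase-activating proteins 13 (-0.0082), of 31 effectors 18 (0.024) and of 7 secretion partners 2 (-0.042). CHML, an escort protein that presents new RABs for prenylation, stood at 45.0 and 52.5 CPM in control and at 60.9 and 52.8 CPM in SWT. Its log2 fold change was 0.22 (standard error 0.09, edgeR adjusted p = 0.838), and without control replicate 2 it was 0.33 and passed (edgeR adjusted p = 0.0189).

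Among exchange factors, RABGEF1, which acts on RAB5, stood at 66.6 and 73.0 CPM in control and at 77.1 and 81.1 CPM in SWT (log2 fold change 0.18, standard error 0.07, edgeR adjusted p = 0.838), and DENND4A at 0.16. Among GTPase-activating proteins, EVI5L stood at -0.31 (-0.51 to -0.14 with 1 library left out) and USP6NL, which acts on RAB5, at 0.15 (0.062 to 0.26). Of the effectors, BICD1, a dynein adaptor that binds RAB6, stood at 0.25 and RILPL1, which binds phosphorylated RAB8 and RAB10, at -0.19. GTPase-activating proteins and effectors thus each had values on both sides of 0, and none passed the test.

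The release machinery that works with RAB3 and RAB27 was present in part. SNAP25, a SNARE protein of the plasma membrane (chromosome 20, 10218830 to 10307418), stood at 10.5 and 10.7 CPM in control and at 7.94 and 7.98 CPM in SWT, a log2 fold change of -0.41 (standard error 0.15, edgeR adjusted p = 0.838). SYT1, the calcium sensor of vesicle release (chromosome 12, 78863993 to 79452008), stood at 36.0 and 33.9 CPM in control and at 30.3 and 29.6 CPM in SWT, a log2 fold change of -0.23 (standard error 0.09, edgeR adjusted p = 0.838). Both SWT libraries lay below both controls for SNAP25 and SYT1, while RAB3B lay above, and none of the 3 passed. RIMS1, the active zone protein that binds RAB3, had 0 counts in all 4 libraries, as did SYN1 and CPLX2.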

How the data were processed

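Members and lists were chosen with earlier results of these data known. Groups and replicate numbers come from the sample titles. The authors deposited raw counts per gene symbol, and 17151 genes as log2 values, with differences between libraries 0.272 times those of log2 CPM over RAB genes at 10 CPM or more in every library. A log2 transform had been planned for that table, and its values were tested as deposited because they are already logarithms. Trimmomatic 0.36, FastQC 0.11.5, STAR 2.5.3a, HTSeq, DESeq2 and the build hg38 appear in the submitters' processing notes, which give them no role. The library kit was stranded, per the labels' protocols. Which annotation and strand setting were used to count is not given in the sources used here.

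Counts were tested with edgeR 4.0.16 (R 4.3.3; TMM factors 0.997 to 1.004, filterByExpr, quasi-likelihood F-test, Benjamini-Hochberg over 12399 genes, threshold 0.05). Standard errors divide the size of the log2 fold change by the root of F, and 95% intervals use a t quantile, so both are approximate. CPM uses TMM-scaled library totals. Library totals were 11647603 and 9888263 in control and 10043697 and 11686808 in SWT, replicates 1 and 2. All 6 pairs of libraries differed beyond sampling noise (chi-square per degree of freedom 1.72 to 3.84). Control replicate 1 gave 3.79 with control replicate 2, and 3.84 and 2.73 with SWT replicates 1 and 2. Control replicate 2 gave 2.27 and 2.77 with SWT replicates 1 and 2.

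Positions and exon lengths are those of GENCODE 29 on GRCh38, the assembly of hg38, matched by symbol for all 63 members, and upstream sequences are RefSeq's (GRCh38.p14, 50 of 63 matched). Named are the RAB3, RAB27 and neuron-enriched genes, the 8 highest per kb, the 5 smallest p-values in each direction and, of each machinery list, the 2 smallest p-values. A gene of the machinery lists that this rule names is not reported here. Other RABs named were chosen after their values were seen. Of 39 effectors, 38 were found in the table. Alternatives were DESeq2 size factors, upper-quartile scaling, no filter, a minimum mean count of 50, a replicate block, each library left out, DESeq2 1.42.0, limma 3.58.1 with voom and on the deposited log2 values, and the longest transcript as length. Removal of GC and length trends (values for 97.3% of tested genes) and a crossed block were added after seeing the data. In 3 simulations of the SWT and control comparison over 12399 genes, edgeR called part of the genes given a change. Their share was 41.3% for changes of 1.25-fold, 74.7% for 1.5-fold, 86% for 2-fold and 94.7% for 3-fold. Planted changes ease the Benjamini-Hochberg cut-off, whereas in the real counts 0 of 12399 genes passed. There RAB3B had an unadjusted edgeR p of 0.0046 and an adjusted p of 0.838. The shares therefore do not give the chance of a call in these data and may overstate it. Plots were drawn with matplotlib 3.10.9 in Python 3.11.15.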

Additional observations from a re-analysis of the deposited data

How the results depend on the processing

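The 48 tested RAB genes gave 0 calls in each alternative run except a crossed block. Over all genes, edgeR called 0 higher and 0 lower with all libraries, but 20 higher and 43 lower without a filter, 1 higher by limma after removal of GC and length trends, and 2 to 106 higher and 15 to 97 lower with 1 library left out, where the lone library of a group is assumed to vary like the other group. Those fits gave 0 to 1 machinery genes higher (CHML), RAB medians of -0.017 to 0.029, and 17 to 23 RAB genes higher and 14 to 19 lower without overlap, against 30.4% to 36.5% and 31.4% to 37.4% of all genes tested. The ratio of RAB27 to RAB3 level per kb was 1.43 to 1.47 with 1 library left out and 1.84 with the longest transcript as length. With 1 library left out, 8 of 31 named genes changed sign at edgeR adjusted p-values above 0.05: RAB3A (-1.03 to 0.050, above 0 without control replicate 2), RAB27A (-0.083 to 0.0051, above 0 without control replicate 1), RAB27B (-0.076 to 0.042, above 0 without control replicate 2 or SWT replicate 2), RAB15 (-0.083 to 0.12, below 0 without SWT replicate 2), RAB6B (-0.18 to 0.070, above 0 without control replicate 1 or SWT replicate 2), RAB7A (-0.0076 to 0.040, below 0 without control replicate 1 or SWT replicate 2), RAB1A (-0.071 to 0.062, above 0 without control replicate 2 or SWT replicate 2) and RAB11A (-0.10 to 0.016, above 0 without control replicate 2). In the other settings 0 of 31 changed sign. The cause of these changes was not tested. Counts of up to 12 per library left 15 genes untested, and RAB3A, RAB20, RAB39A and RAB43 have intervals too wide to bound a change.

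The correlation of same-numbered deviations was -0.264, so the numbers as labelled gave no sign of pairing the samples. With 2 libraries per group, a negative value here means a positive one for crossed numbers. Chi-square per degree of freedom was 2.73 and 2.27 for crossed pairs (control 1 with SWT 2, control 2 with SWT 1). For same-numbered pairs it was 3.84 and 2.77. Each group's smaller library also had its higher heart muscle marker sum. Whether the samples were paired in the crossed way was not tested. The replicate block gave 0 genes higher and 1 lower over all genes, a RAB median of 0.0095 and 0 RAB calls. With the numbers crossed as a block, chosen after seeing the data, edgeR called 55 genes higher and 42 lower, 1 RAB gene higher (RAB3B) and 0 RAB genes lower.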

Other observations

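RAB4B, on the fast recycling route, had 0 counts in all 4 libraries, and so did the readthrough genes RAB4B-EGLN2 and MIA-RAB4B and their other parts, EGLN2 and MIA. EGLN2 encodes an oxygen-sensing prolyl hydroxylase found in many tissues. RAB4B shares 36.8% of its exon bases with genes of the same strand, and whether these zeros come from the counting was not tested. At another locus of this kind, RAB43 and ISY1-RAB43, the readthrough gene had 0 counts, RAB43 had 3 to 12 per library, and ISY1 had 189 to 247.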
